A study of Mus musculus with 12 samples.

Results

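The genes described here encode the enzymes that build cholesterol and fatty acids, with the transcription factors that control them. They were chosen by name, with earlier results of these data known, so counts of members set beside all genes are no blind test. They are 37 genes of 55487 in the count table, and all 37 were found by their mouse gene identifiers. Of these, 18 are enzymes from acetoacetyl-CoA to the end of sterol synthesis, 14 act in fatty acid synthesis, and 5 are sterol regulatory factors, their partners or a sterol carrier. Bulk RNA sequencing was done on CD8+ T cells, the killer cells among T cells, taken from splenocytes of C57BL/6 mice. The 4 groups of 3 libraries were cells with IL-2, with IL-2 80%TCM, with IL-12 and with IL-12 80%TCM. The labels give no genetic change, no cytokine-free group, no age, no dose and no length of treatment. They do not spell out TCM, while the series' title speaks of tumor-like conditions, and the groups with it are called IL-2 TCM and IL-12 TCM below. IL-2 drives the growth and survival of T cells, while IL-12 acts through STAT4 and promotes interferon gamma. The labels do not state separate mice or cultures for the libraries of a group, so a p-value here speaks only of the spread among these libraries, which may be technical.

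Cells make cholesterol from acetyl-CoA through mevalonate, isoprene units, squalene and lanosterol. SREBP-2, the product of Srebf2, and SREBP-1, the product of Srebf1, are membrane-bound transcription factors that Scap carries from the endoplasmic reticulum to the Golgi when sterols are low, while Insig1 retains them when sterols are high. SREBP-2 is best known for turning on the sterol genes and SREBP-1c for the fatty acid genes, and T cells use both programmes when they grow and divide.

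Total gene counts, in units of 1e+06, were 19.5 to 26.0 per library in 10 of the 12. The deepest were IL-12 replicates 1 and 2, at 49.6 and 42.3, which have less counting error. Single members had from 7 to 61020 counts in a library, the lowest in Me1 and the highest in Scd2. Replicate 3 of the IL-2 group and replicate 3 of the IL-2 TCM group stood apart from the others. All 13 glycolysis genes examined were above replicates 1 and 2 there, by a median of 1.33 and 1.57 on the log2 scale, against none of 13 in the IL-12 group. The sterol and fatty acid genes were touched less evenly: 12 of 18 sterol enzymes were above both other libraries in the IL-2 group and 15 of 18 in the IL-2 TCM group, by medians of 0.11 and 0.14. Markers of CD8 T cells summed to 2929 to 3595 counts per 1e+06 counts (CPM) per library. The extraction text in the labels speaks of livers, and the 5 hepatocyte markers summed to at most 0.666 CPM, with Fabp1 and Cyp2e1 at 0 in all libraries. In bulk RNA, a change in the number of cells of a type and a change in RNA per cell cannot be told apart, for any value below.

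Upstream sequences are shown for 4 members whose levels with TCM went different ways in the sections that follow. Hmgcs1 and Mvd rose with TCM under both cytokines, Fasn was called as higher with IL-12 and not with IL-2, and Ebp fell slightly with IL-2. The lines give the 150 bases before the transcription start from RefSeq on GRCm38.p6, 5′ to 3′ on the gene's strand. Capitals mark matches, on either strand, to the NF-Y box CCAAT, the GC box GGGCGG or the sterol regulatory element TCACNCCAC.
Hmgcs1, chr13:119690201-119690350, plus strand: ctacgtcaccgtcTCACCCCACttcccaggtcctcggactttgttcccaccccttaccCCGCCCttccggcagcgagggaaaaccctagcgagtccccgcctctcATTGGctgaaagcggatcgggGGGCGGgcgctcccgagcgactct
Mvd, chr8:122443423-122443572, minus strand: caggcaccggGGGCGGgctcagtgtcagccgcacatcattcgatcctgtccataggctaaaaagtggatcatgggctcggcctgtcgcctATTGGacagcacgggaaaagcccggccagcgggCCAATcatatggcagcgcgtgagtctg
Fasn, chr11:120824548-120824697, minus strand: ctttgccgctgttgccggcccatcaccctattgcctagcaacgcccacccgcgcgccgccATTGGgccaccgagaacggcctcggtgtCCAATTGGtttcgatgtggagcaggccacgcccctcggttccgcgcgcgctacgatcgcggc
Ebp, chrX:8193513-8193662, minus strand: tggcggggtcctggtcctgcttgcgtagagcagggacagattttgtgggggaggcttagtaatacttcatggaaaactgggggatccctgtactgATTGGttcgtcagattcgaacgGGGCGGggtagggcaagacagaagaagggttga
Hmgcs1 holds the one match to TCACNCCAC, at position -137 from the RefSeq start. The first 20 bases after the start were found in a GENCODE M21 transcript for 31 of the 38 member windows, among them Mvd, Fasn and Ebp and not Hmgcs1, whose start is thus less certain. In Fasn the second run of capitals is a pair of overlapping NF-Y boxes on opposite strands, and there is no GC box in its window. Ebp has an NF-Y box and a GC box like the rising genes. RefSeq windows of 250 upstream bases were at hand for 30 of 37 members and 27025 genes in all, and were searched on both strands. CCAAT was found in 23 of the 30 members (76.7%) against 37.5% of all genes, and GGGCGG in 24 (80%) against 35.4%. Of the 15 sterol enzymes with a window, 14 held CCAAT and 14 held GGGCGG, and of the 11 fatty acid genes 6 and 6 did. TCACNCCAC occurred in 1 of the 30 members and in 1.22% of all genes, and CACGTG, the E-box, in 6 members (20%) and in 6.86% of genes. A match is a run of letters in a window and shows no binding, and no match says only that these letters are not there.

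The members together took 0.460 to 0.485% of all counts in the IL-2 libraries and 0.553 to 0.594% in IL-2 TCM. In the IL-12 libraries the share was 0.639 to 0.655%, and in IL-12 TCM it was 0.995 to 1.01%, so the 4 groups did not overlap. The 18 sterol enzymes summed to 1150 ± 58.9 CPM (SD, n = 3) with IL-2 and 1769 ± 113 with IL-2 TCM. With IL-12 their sum was 2057 ± 27.8 CPM, and with IL-12 TCM it was 3744 ± 46.1. The 14 fatty acid genes summed to 2374 ± 5.68 CPM with IL-2 and 2510 ± 86.7 with IL-2 TCM, against 3371 ± 70.1 with IL-12 and 5102 ± 136 with IL-12 TCM. Sterol enzyme messages thus lay higher with TCM under either cytokine, while the sum of the fatty acid genes moved little with TCM under IL-2. With IL-2, Scd2 alone averaged 1046 CPM of that sum. Replicate 3 of IL-2 was its highest library for Scd2 (1134 CPM) and its lowest for Fasn (313 CPM), so the small SD of the sum hides opposite shifts.

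For single genes, the mean was highest with IL-12 TCM in 30 of 37 members and lowest with IL-2 in 26. In 22 members the order was IL-12 TCM, IL-12, IL-2 TCM and then IL-2, and in 10 of these no neighbouring groups overlapped: Acat2, Pmvk, Idi1, Fdps, Sqle, Cyp51, Nsdhl, Hsd17b7, Sc5d and Insig1. All 3 IL-12 TCM libraries were above the other 9 in 27 members. The 10 without that separation were Ebp, Srebf1, Scap, Acss2, Me1, Acacb, Mid1ip1, Elovl1, Elovl5 and Fads1. These orders and separations were not counted over all genes, so the counts alone do not set the members apart from genes in general.

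**Figure D1:**
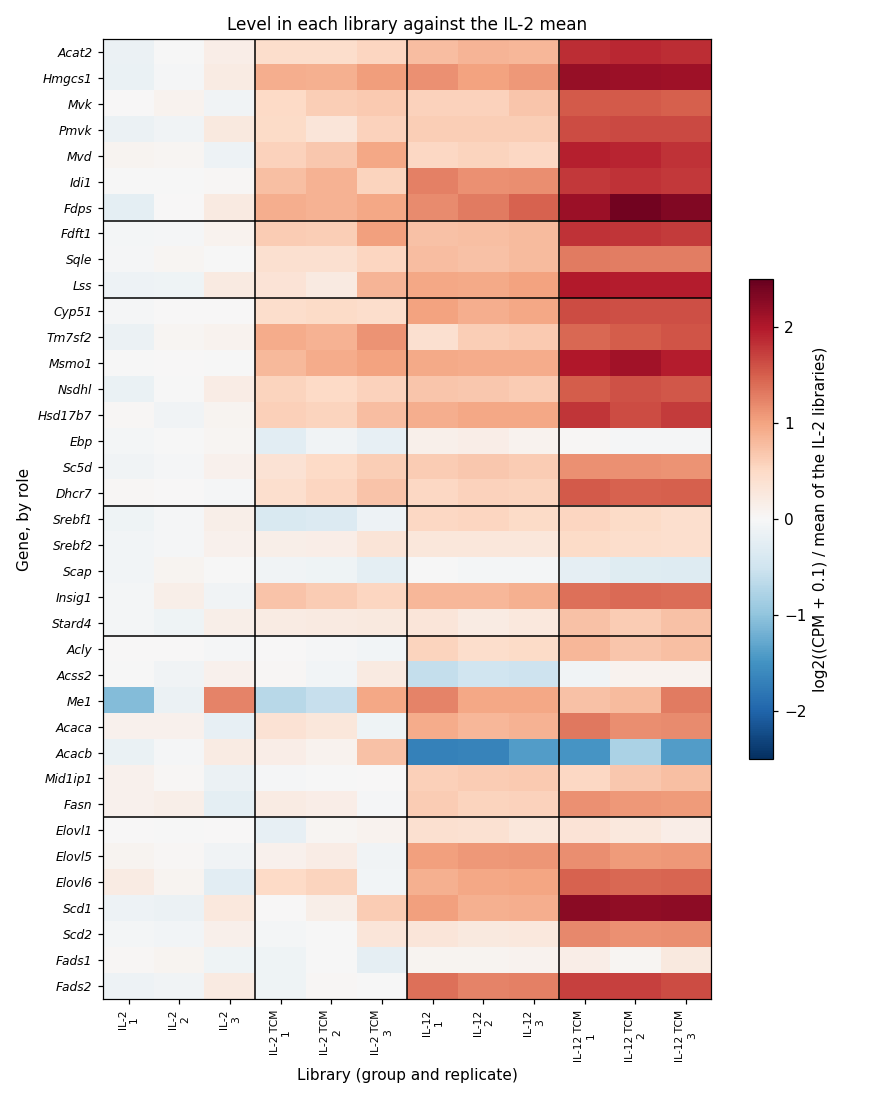
Levels of the 37 genes in the 12 libraries, with genes in rows by role and libraries in columns by group. Colour is the log2 ratio of CPM (with 0.1 added) to the mean log level of the 3 IL-2 libraries, on a scale that ends at ±2.5; most sterol rows and Scd1 are darkest red in the IL-12 TCM columns, and Acacb is the darkest blue row, with both IL-12 groups.

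With TCM in IL-2, 22 of 37 members were called, meaning an adjusted p under 0.05 (edgeR quasi-likelihood test, Benjamini-Hochberg over all genes tested). Of these 20 were higher and 2 lower, while 14.5% of the 15897 genes tested were called, 6.73% as higher and 7.82% as lower. The median log2 fold change was 0.36 over the members and 0.00 over all genes. In 19 members all 3 TCM libraries were above all 3 without it and in 3 they were below, against 13.1% and 14.3% of all genes. A rise of at least 1.5-fold was called in 10 members, against 5.12% of genes past that fold in either direction, and one of at least 2-fold in 0, against 2.15%. With TCM in IL-12, 29 members were called, 28 higher and 1 lower, against 29% of all genes, 14.8% higher and 14.2% lower. The median was 0.55 over the members and 0.01 over all genes, 17 members were called past 1.5-fold (10% of genes) and 7 past 2-fold (4.26%). Groups were apart, with TCM higher, in 28 members against 26.9% of all genes, and with TCM lower in 2 against 25.3%.

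The 7 enzymes of the mevalonate pathway all rose with TCM under both cytokines. Their median log2 fold change was 0.73 with IL-2 and 1.03 with IL-12. Hmgcs1 (ENSMUSG00000093930) makes HMG-CoA, the step before mevalonate. Its level in replicates 1, 2 and 3 was 172, 188 and 221 CPM with IL-2 and 361, 355 and 397 CPM with IL-2 TCM. With IL-12 it was 422, 388 and 407 CPM, and with IL-12 TCM 868, 852 and 831 CPM. The lowest TCM library was above the highest library without it under each cytokine, and the IL-12 libraries overlapped those of IL-2 TCM. The rise was 1.92-fold with IL-2 (log2 fold change 0.94, SE 0.079, edgeR adjusted p = 1.9e-05) and 2.09-fold with IL-12 (1.07, SE 0.079, adjusted p = 3.4e-06). An unnamed gene model, Gm48342, covers 12.1% of the exon bases of Hmgcs1 and had at most 0.84 CPM.

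Mvd, the decarboxylase that makes isopentenyl diphosphate, rose most of these 7 with TCM in IL-12. Its libraries held 61.1, 63.0 and 60.9 CPM with IL-12 and 164, 161 and 151 CPM with IL-12 TCM. With IL-2 they held 45.1, 44.3 and 39.4 CPM, and with IL-2 TCM 64.1, 68.7 and 84.1 CPM. The groups were apart under both cytokines, and replicate 3 was the highest of the IL-2 TCM libraries. The fold was 2.57 with IL-12 (log2 1.36, SE 0.087, edgeR adjusted p = 1.3e-06) and 1.68 with IL-2 (0.75, SE 0.089, adjusted p = 0.00020). Pmvk, a kinase acting on phosphomevalonate, rose least of the 7 with IL-2. It went from 34.0, 35.5 and 44.5 CPM to 52.6, 46.8 and 56.1 CPM with IL-2, and from 57.5, 57.7 and 58.1 CPM to 118, 118 and 119 CPM with IL-12. The lowest IL-2 TCM library was only slightly above the highest IL-2 library, whereas the IL-12 groups were far apart. The log2 fold changes were 0.45 (SE 0.090, edgeR adjusted p = 0.0058) and 1.03 (SE 0.088, adjusted p = 8.4e-06).

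Idi1, which interconverts isopentenyl and dimethylallyl diphosphate, rose least of the 7 with TCM in IL-12. Levels were 38.5, 38.6 and 39.7 CPM with IL-2, 65.2, 71.0 and 57.6 with IL-2 TCM, 93.1, 86.1 and 87.1 with IL-12 and 132, 137 and 133 with IL-12 TCM. None of the 4 groups overlapped, and the log2 fold change with TCM was 0.73 in IL-2 (SE 0.069) and 0.59 in IL-12 (SE 0.067). Acat2, which condenses acetyl-CoA to acetoacetyl-CoA, had 46.9, 51.1 and 57.9 CPM with IL-2 and 70.2, 70.6 and 74.9 CPM with IL-2 TCM. With IL-12 it had 88.5, 93.6 and 92.0 CPM, and with IL-12 TCM 187, 191 and 187 CPM. Its groups were likewise apart, and its rise was 1.38-fold with IL-2 and 2.06-fold with IL-12. Mvk, mevalonate kinase, went from 29.0 ± 1.60 to 43.7 ± 2.49 CPM with IL-2 and from 44.4 ± 2.15 to 83.2 ± 0.954 CPM with IL-12 (mean ± SD, n = 3). Fdps, which makes farnesyl diphosphate, was low, at 3.94 ± 0.634 and 7.49 ± 0.262 CPM with IL-2 and 9.90 ± 1.03 and 19.5 ± 1.82 CPM with IL-12. Gm43738 covers 26.7% of its exon bases on the same strand, so reads that fit both may not have been counted for Fdps, and its level is uncertain.

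Squalene synthase, squalene epoxidase and lanosterol synthase rose with TCM under both cytokines, with medians of 0.49 and 0.99 on the log2 scale. Fdft1, squalene synthase, rose most of the 3. Its libraries held 64.8, 64.9 and 70.4 CPM with IL-2, 103, 102 and 136 with IL-2 TCM, 110.5, 112 and 116 with IL-12 and 234, 232 and 223 with IL-12 TCM. Both TCM groups were above their counterparts, by 0.77 (SE 0.092, edgeR adjusted p = 0.00023) and 1.03 (SE 0.091, adjusted p = 1.0e-05), and replicate 3 was the highest of IL-2 TCM. Ctsb overlaps 18.3% of the exon bases of Fdft1 on the opposite strand and was not called with TCM in either cytokine. Sqle, the epoxidase and a known control point of the pathway, rose least of the 3. It stood at 120.1, 125 and 120.3 CPM with IL-2, 160.1, 161 and 176 with IL-2 TCM, 208, 201 and 211 with IL-12 and 301, 298 and 296 with IL-12 TCM. Its 4 groups did not overlap, and its TCM rises were 1.36-fold and 1.44-fold. Lss, which closes squalene epoxide into lanosterol, went from 65.7, 66.5 and 83.2 CPM to 91.0, 83.0 and 128 CPM with IL-2, where 1 TCM library was just under the highest IL-2 library. The call for Lss in IL-2 (log2 0.49, SE 0.13, edgeR adjusted p = 0.025) was lost in 4 of 24 alternatives, among them leaving out replicate 1 or 2 of IL-2. With IL-12 it went from 140.2 ± 2.50 to 279 ± 2.25 CPM.

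Of the 8 enzymes that convert lanosterol onward, 7 rose with TCM under both cytokines and Ebp did not. Medians over the 8 were 0.56 with IL-2 and 0.83 with IL-12. Cyp51, the lanosterol demethylase, varied little within groups. Its libraries held 168, 172 and 171 CPM with IL-2, 233, 236 and 231 with IL-2 TCM, 342, 320.0 and 332 with IL-12 and 525, 521 and 521 with IL-12 TCM. All 4 groups were apart, with rises of 1.37-fold (edgeR adjusted p = 4.7e-05) and 1.58-fold (adjusted p = 1.3e-06). Msmo1, the sterol methyl oxidase, had the lowest adjusted p of all members for TCM in each cytokine. Its levels were 67.0, 67.6 and 66.8 CPM with IL-2 and 118, 127 and 134 CPM with IL-2 TCM. With IL-12 they were 129.7, 128 and 129 CPM and with IL-12 TCM 270.4, 287 and 263 CPM. The IL-2 TCM and IL-12 libraries overlapped, and both TCM groups lay above their counterparts by 0.91 (SE 0.055, edgeR adjusted p = 9.8e-07) and 1.09 (SE 0.054, adjusted p = 2.2e-07).

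Tm7sf2, a sterol reductase, had the largest rise of the 37 with TCM in IL-2. It went from 8.73, 10.1 and 10.3 CPM to 18.6, 17.7 and 21.2 CPM, and with IL-12 from 12.8, 14.9 and 15.2 CPM to 26.2, 27.9 and 29.1 CPM. Its order differed from most members, since the IL-2 TCM libraries lay above the IL-12 libraries. The TCM fold was 1.97 with IL-2 (log2 0.98, SE 0.10, edgeR adjusted p = 0.00010) and 1.94 with IL-12 (0.96, SE 0.10, adjusted p = 3.4e-05). Vps51, which covers 12.1% of its exon bases on the same strand, was not called with TCM. Nsdhl, Hsd17b7, Sc5d and Dhcr7, which act between Msmo1 and cholesterol, rose by 0.54, 0.64, 0.50 and 0.57 with IL-2 and by 0.89, 0.78, 0.48 and 0.96 with IL-12. None of these 4 had overlapping groups with and without TCM.

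Ebp, the sterol isomerase of the same branch, was the exception. Its libraries held 50.8, 51.9 and 54.1 CPM with IL-2 and 43.6, 49.2 and 45.1 CPM with IL-2 TCM. With IL-12 they held 56.7, 58.7 and 55.4 CPM and with IL-12 TCM 53.3, 51.5 and 51.2 CPM. The TCM libraries lay below the others under each cytokine, by small margins. The log2 fold change was -0.19 with IL-2 (SE 0.057, edgeR adjusted p = 0.044) and -0.13 with IL-12 (SE 0.056, adjusted p = 0.097). That call in IL-2 was lost in 18 of 24 alternatives, with adjusted p from 0.013 to 0.20. The difference between Ebp and its pathway neighbours was not tested as such.

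**Figure D2:**
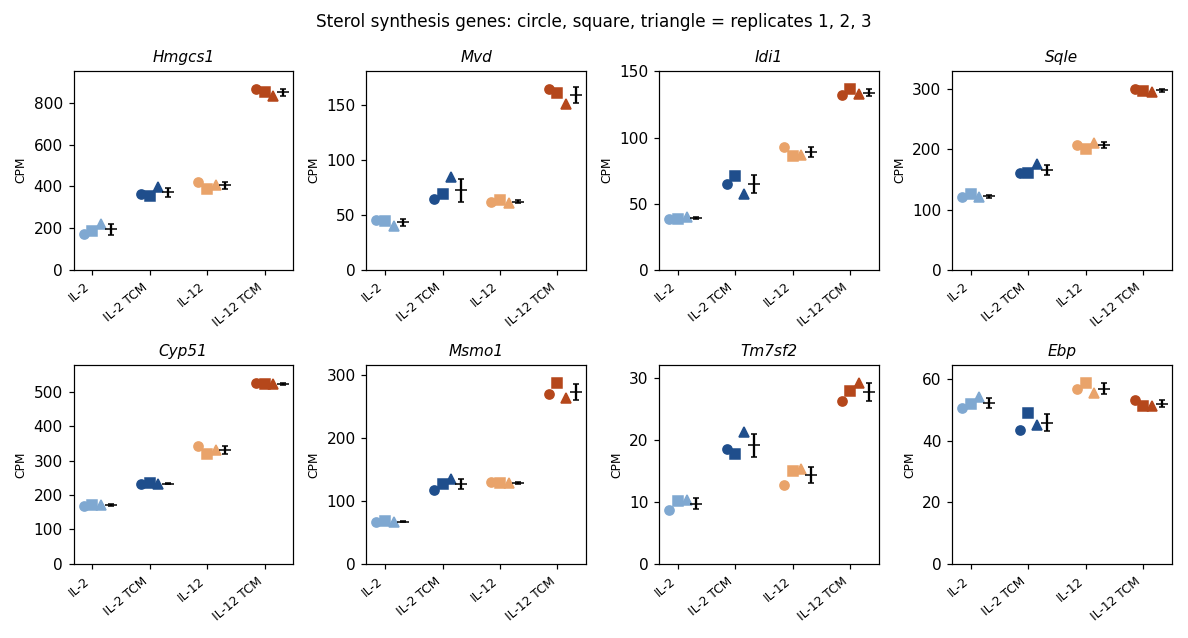
CPM of 8 sterol enzymes in each library by group, with axes from 0; circles, squares and triangles are replicates 1, 2 and 3, and black marks are the mean ± SD of 3 libraries. In 7 panels the TCM points lie above the points without TCM under each cytokine, and in the Ebp panel they lie below.

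The 5 control genes moved in different directions with TCM. Srebf2, the sterol-type SREBP, held 462, 469 and 515 CPM with IL-2, 532, 541 and 602 with IL-2 TCM, 584, 586 and 585 with IL-12 and 666, 657 and 644 with IL-12 TCM. The TCM groups were above their counterparts by small margins, 1.16-fold with IL-2 (edgeR adjusted p = 0.025) and 1.12-fold with IL-12 (adjusted p = 0.045). The second call was lost in 13 of 24 alternatives and the first in 3. Srebf1 held 198, 209.7 and 238 CPM with IL-2 and 166, 171 and 197 CPM with IL-2 TCM, and 307, 310.1 and 299 CPM with IL-12 and 309.8, 299 and 287 CPM with IL-12 TCM. It fell with TCM in IL-2, where the groups were just apart, and its groups overlapped in IL-12. Log2 fold changes were -0.28 (SE 0.075, edgeR adjusted p = 0.025) and -0.03 (SE 0.074, adjusted p = 0.77), and the test of their difference gave 0.24 (adjusted p = 0.31, or 0.014 with the IL-2 libraries blocked by replicate number). The call in IL-2 was lost in 5 of 24 alternatives, with adjusted p up to 0.13. The files give 1 value per gene, so the SREBP-1a and SREBP-1c forms cannot be told apart.

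Insig1, the retention protein and itself a known SREBP target, rose most of these 5. Its libraries held 103, 119 and 100.3 CPM with IL-2, 175, 168 and 156 with IL-2 TCM, 191, 191 and 198 with IL-12 and 279.7, 285 and 282 with IL-12 TCM. The 4 groups did not overlap, and the TCM rises were 1.54-fold (edgeR adjusted p = 9.7e-05) and 1.46-fold (adjusted p = 7.8e-05). Scap, the escort of the SREBPs, held 78.2, 86.0 and 81.1 CPM with IL-2 and 77.2, 75.3 and 69.3 CPM with IL-2 TCM, against 80.7, 78.9 and 78.5 CPM with IL-12 and 70.1, 66.6 and 65.0 CPM with IL-12 TCM. The TCM libraries were the lower ones under both cytokines, and the decrease was called in IL-12 (log2 -0.24, SE 0.057, edgeR adjusted p = 0.0077). In IL-2 it was -0.15 (SE 0.057, adjusted p = 0.11), and adjusted p = 0.037 when the IL-2 libraries were blocked by replicate number. Stard4, a cytosolic sterol carrier, rose 1.16-fold and 1.36-fold, from 154 ± 14.1 to 179 ± 2.13 CPM and from 184 ± 6.45 to 250.3 ± 9.48 CPM. Its call in IL-2 was lost in 4 of 24 alternatives.

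With TCM in IL-2, 0 of the 14 fatty acid genes were called by edgeR as fitted here, nor were any by DESeq2 or limma, and 1 had an unadjusted p under 0.05 in edgeR. With TCM in IL-12, 8 of the 14 were called and all 8 were higher. Medians were 0.07 and 0.37 on the log2 scale. Replicate numbers pair the IL-2 libraries by the check described for the processing, and with them as a block 3 of the 14 were called in IL-2, all higher. Under that fit 27.9% of all genes were called, so the share of these 14 is no higher than that of genes in general. The 3 were Acaca (0.17, edgeR adjusted p = 0.017), Elovl6 (0.33, adjusted p = 7.4e-05) and Scd1 (0.27, adjusted p = 0.00069). The same 3 were called when replicate 3 was dropped from IL-2 and IL-2 TCM, where 24.7% of all genes were called. Without a filter on low counts, edgeR called Elovl6 (adjusted p = 8.8e-05) and Scd1 (adjusted p = 0.0024). Leaving out IL-2 replicate 3 alone called Scd1 (log2 0.42, adjusted p = 0.045). Leaving out IL-2 TCM replicate 3 alone called Acaca (log2 0.32, adjusted p = 0.024) and Elovl6 (log2 0.52, adjusted p = 0.0031). Replicate 3 was shifted the same way in IL-2 and IL-2 TCM, by 0.41 and 0.56 for Scd1 and by -0.41 and -0.60 for Elovl6 on the log2 scale. Dropping it from a single group therefore leaves its shift in the TCM comparison, so these one-sided calls do not stand as further evidence.

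Among the genes that supply acetyl-CoA and NADPH and build the chain, Acly, which cleaves citrate to acetyl-CoA, was abundant and even. It held 340.0, 341 and 333 CPM with IL-2 and 339, 334 and 325 CPM with IL-2 TCM, which overlapped. With IL-12 it held 496, 461 and 468 CPM and with IL-12 TCM 603, 548 and 569.5 CPM, a called rise of 1.21-fold (edgeR adjusted p = 0.0014). Acss2, which makes acetyl-CoA from acetate, had a pattern of its own. Its libraries held 30.5, 28.8 and 32.9 CPM with IL-2, 31.2, 29.3 and 36.1 with IL-2 TCM, 20.4, 21.6 and 21.3 with IL-12 and 28.9, 32.6 and 32.6 with IL-12 TCM. The IL-12 libraries were the lowest of the 4 groups and the other 3 groups overlapped. It rose 1.49-fold with TCM in IL-12 (edgeR adjusted p = 0.00042), the largest rise of these 7 genes, and its log2 change in IL-2 was 0.07 (adjusted p = 0.65).

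Acaca, the acetyl-CoA carboxylase that makes malonyl-CoA for synthesis, held 95.5, 95.3 and 77.0 CPM with IL-2 and 114, 108 and 81.9 CPM with IL-2 TCM. Replicate 3 was the lowest library of both groups. With IL-12 it held 169, 157 and 162 CPM and with IL-12 TCM 222, 198 and 201 CPM, which did not overlap. The rise in IL-12 was 1.27-fold (edgeR adjusted p = 0.029), a call lost in 7 of 24 alternatives. That test pools the spread of all 4 groups. The SD of Acaca was 10.6 CPM with IL-2 and 17.0 with IL-2 TCM, against 5.91 with IL-12 and 12.8 with IL-12 TCM. Fasn, fatty acid synthase, showed the same low replicate 3, with 399.7, 409 and 313 CPM with IL-2 and 427, 418 and 366 CPM with IL-2 TCM. With IL-12 its level was 581, 543 and 553 CPM and with IL-12 TCM 822, 785 and 774 CPM. The 2 IL-12 groups were far apart, with a rise of 1.42-fold (log2 0.51, SE 0.089, edgeR adjusted p = 0.0011), against 0.11 (SE 0.089, adjusted p = 0.46) in IL-2.

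Acacb, the carboxylase of the mitochondrial surface that restrains fatty acid oxidation, was near the bottom of the measured range. Its libraries held 2.95, 3.26 and 3.86 CPM with IL-2, 3.78, 3.54 and 5.58 with IL-2 TCM, 0.973, 0.988 and 1.21 with IL-12 and 1.13, 1.88 and 1.20 with IL-12 TCM. TCM did not change it past the threshold in IL-2 (log2 0.36, SE 0.21) or in IL-12 (0.43, SE 0.26), and the IL-2 and IL-12 groups were apart. Me1, malic enzyme, was the lowest member in both IL-2 groups, with 0.309, 0.685 and 1.95 CPM with IL-2 and 0.436, 0.480 and 1.60 CPM with IL-2 TCM. Replicate 3 was the highest library of both groups, and the standard errors of its log2 fold changes with TCM were 0.57 and 0.49. With IL-12 it held 1.97, 1.60 and 1.61 CPM and with IL-12 TCM 1.34, 1.41 and 2.05 CPM. In the fit reported here Me1 was called in none of the 5 contrasts. With the IL-2 libraries blocked by replicate number it was higher with IL-12, by 1.16 on the log2 scale without TCM (edgeR adjusted p = 0.00045) and by 1.26 with TCM (adjusted p = 0.00065). Without replicate 3 of IL-2 the first was 1.78 (adjusted p = 0.013), and without replicate 3 of IL-2 TCM the second was 1.78 (adjusted p = 0.017). Mid1ip1, which activates the carboxylases, was at 17.0 ± 1.45 and 16.8 ± 0.210 CPM with IL-2 and at 26.2 ± 0.493 and 26.7 ± 2.05 CPM with IL-12, and was not called with TCM.

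The stearoyl-CoA desaturases, which make monounsaturated fatty acids, had the largest differences in TCM effect between the cytokines. Scd1 held 48.2, 47.6 and 63.6 CPM with IL-2 and 53.0, 58.3 and 82.2 CPM with IL-2 TCM, which overlapped, with replicate 3 the highest of each. With IL-12 it held 107, 97.5 and 99.6 CPM and with IL-12 TCM 251, 244 and 250.1 CPM. The rise in IL-12 was 2.45-fold (log2 1.29, SE 0.14, edgeR adjusted p = 4.0e-05), against 0.28 (SE 0.14, adjusted p = 0.21) in IL-2. Scd2, the most abundant member, held 1007, 998 and 1134 CPM with IL-2 and 1008, 1036 and 1291 CPM with IL-2 TCM, again overlapping. With IL-12 it held 1290.1, 1234 and 1252 CPM and with IL-12 TCM 2415, 2315 and 2331 CPM. These were apart by 1.87-fold (log2 0.90, SE 0.083, edgeR adjusted p = 1.4e-05), while the change in IL-2 was 0.09 (SE 0.083, adjusted p = 0.53).

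Elovl6, which extends palmitate to stearate, held 83.1, 75.1 and 59.7 CPM with IL-2 and 102, 105 and 68.5 CPM with IL-2 TCM, with replicate 3 the lowest of each group. With IL-12 it held 133, 141 and 143 CPM and with IL-12 TCM 199, 194 and 197 CPM, groups that did not overlap. Its rise in IL-12 was 1.42-fold (edgeR adjusted p = 0.015), a call lost in 6 of 24 alternatives. That test pools the spread of all 4 groups. The SD of Elovl6 was 11.9 CPM with IL-2 and 20.3 with IL-2 TCM, against 5.43 with IL-12 and 2.30 with IL-12 TCM. Fads2, the desaturase that starts polyunsaturated fatty acid synthesis, went from 114 ± 6.38 to 150.2 ± 4.60 CPM with IL-12 (edgeR adjusted p = 0.0029) and stood at 46.7 ± 6.36 and 45.5 ± 2.14 CPM with IL-2. Fads1, a desaturase later in that route, ranged from 67.1, 69.3 and 61.5 CPM with IL-2 and 61.0, 65.6 and 56.7 CPM with IL-2 TCM to 69.1, 68.8 and 69.6 CPM with IL-12 and 73.5, 68.6 and 78.4 CPM with IL-12 TCM. Neither TCM comparison called Fads1, and its groups overlapped. Elovl1 and Elovl5, elongases of saturated and polyunsaturated chains, were not called with TCM either. Elovl1 stood at 64.6, 63.1 and 63.9 CPM with IL-2, 55.5, 65.7 and 68.3 with IL-2 TCM, 83.8, 83.5 and 77.3 with IL-12 and 81.5, 77.0 and 71.8 with IL-12 TCM.

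**Figure D3:**
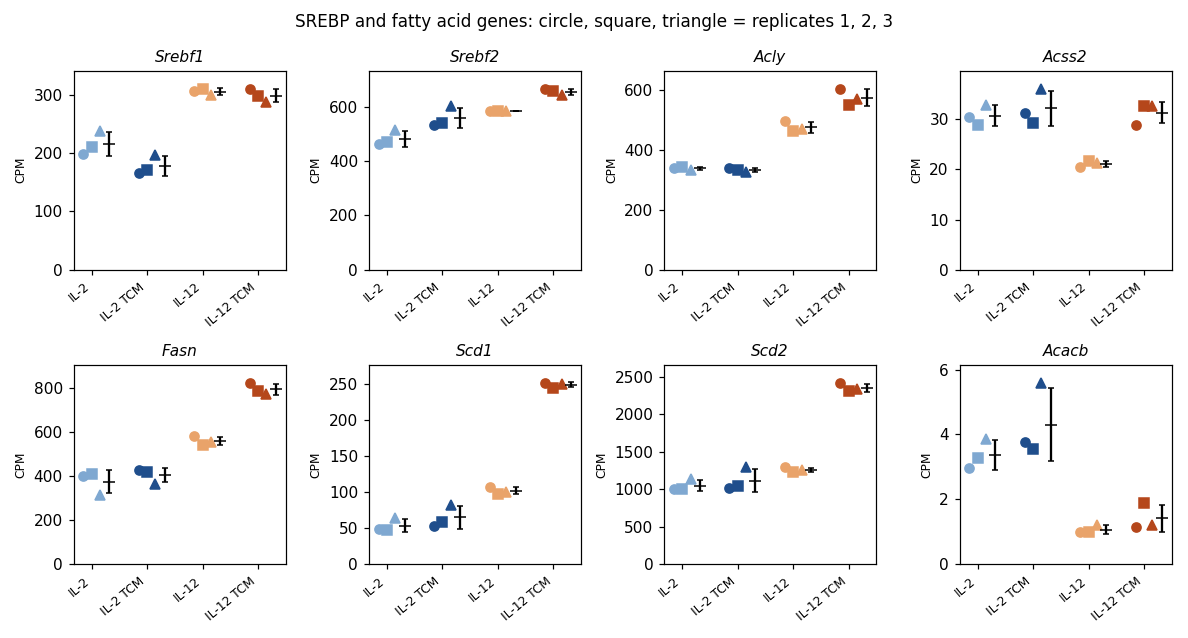
CPM of Srebf1, Srebf2 and 6 fatty acid genes in each library by group, with axes from 0; circles, squares and triangles are replicates 1, 2 and 3, and black marks are the mean ± SD of 3 libraries. Scd1, Scd2 and Fasn points with IL-12 TCM lie above those of the other 3 groups, and Acacb points with either IL-12 group lie below those with IL-2.

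The TCM comparisons in IL-2 and in IL-12 share no library, though they share 1 estimate of the spread. The same 20 members rose in both: 17 sterol enzymes, Srebf2, Insig1 and Stard4. Another 8 were called as higher in IL-12 and not in IL-2, all of them fatty acid genes: Acly, Acss2, Acaca, Fasn, Elovl6, Scd1, Scd2 and Fads2. In neither comparison were Me1, Acacb, Mid1ip1, Elovl1, Elovl5 and Fads1 called, and 0 members were called in opposite directions. The log2 fold change was larger in IL-12 in 29 of 37 members. A direct test of the difference between the TCM effects called 5 members, all larger in IL-12, while 1.58% of genes were called, 1.19% as higher in IL-12 and 0.39% as lower.

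The 5 genes of the direct test were Acat2, Pmvk and Mvd of the mevalonate pathway and the desaturases Scd1 and Scd2. Scd1 had the largest difference, 1.01 on the log2 scale (SE 0.20, edgeR adjusted p = 0.021). For Scd2 it was 0.82 (SE 0.12, adjusted p = 0.0047) and for Acat2 0.57 (SE 0.095, adjusted p = 0.0092). Both kept their call in all alternatives run, whereas Scd1, Pmvk and Mvd lost it in 7, 9 and 11. Pmvk differed by 0.59 (SE 0.13, adjusted p = 0.036) and Mvd by 0.61 (SE 0.12, adjusted p = 0.027). Of the 8 fatty acid genes called only in IL-12, 6 were not called in the test of the difference as fitted here, such as Fasn at 0.40 (SE 0.13, adjusted p = 0.15). For Hmgcs1 the difference was 0.13 (SE 0.11, adjusted p = 0.66) and for Msmo1 0.17 (SE 0.076, adjusted p = 0.31). Blocking the IL-2 libraries by replicate number gave 17 members in this test, while 10.5% of all genes were called. Fasn (edgeR adjusted p = 0.00050), Acss2 (adjusted p = 0.00072), Fads2 (adjusted p = 0.0018) and Acly (adjusted p = 0.0052) were among the 17. Dropping replicate 3 from IL-2 and IL-2 TCM gave 18 members, 17 larger in IL-12 and 1, Idi1, smaller, while 13.2% of all genes were called. Platelet markers moved with TCM: their sum was 102 to 124 CPM with IL-2, 41.8 to 54.2 with IL-2 TCM, 57.0 to 67.5 with IL-12 and 23.2 to 29.5 with IL-12 TCM, with Gp1bb at 0. CD8 T cell markers were higher with TCM, at 2929 to 3208 and 3434 to 3595 CPM in IL-2 and 3017 to 3119 and 3367 to 3549 CPM in IL-12. The 3 CD4 T cell markers summed to 15.8 to 16.8 CPM with IL-12 and 28.7 to 32.7 with IL-12 TCM, and overlapped in IL-2. Of these markers, 2 had a mean under 1 CPM with IL-12 and 1 with IL-12 TCM. A sum does not show whether all 3 moved together. Myeloid markers summed to 0.503 to 1.04 CPM with IL-12 and to 1.41 CPM or more with IL-12 TCM. All 6 of them had a mean under 1 CPM in both groups, so these sums are near the floor. Whether these sums reflect other cells, and the part of such cells in the TCM results, was not tested.

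**Figure D4:**
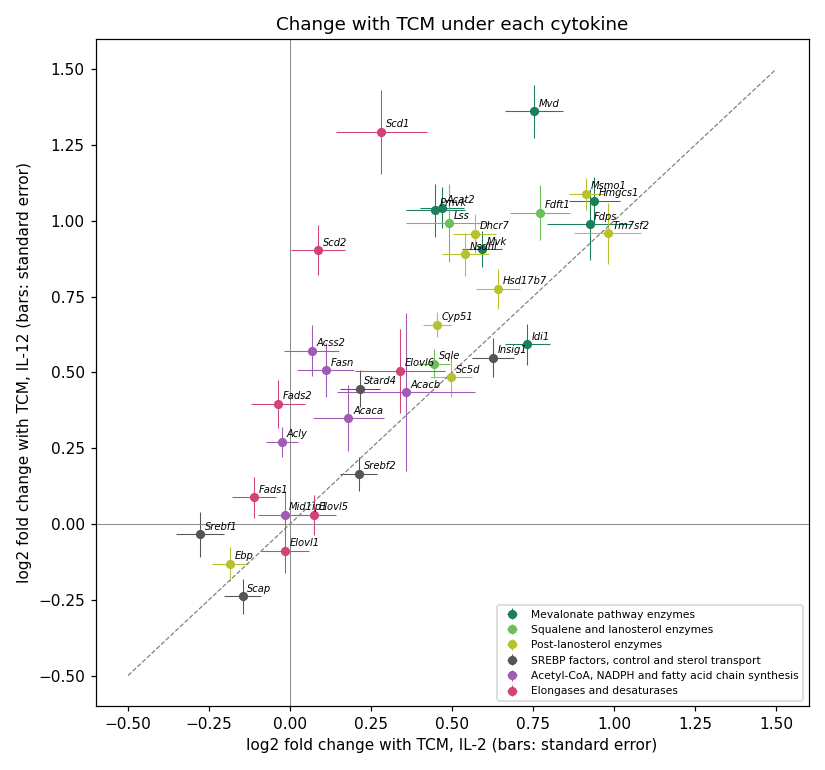
Log2 fold change with TCM in IL-2 (horizontal) against IL-12 (vertical) for 36 members, with bars of 1 standard error on both axes and the diagonal of equal effects; Me1 is left out for its wide errors. Sterol enzymes other than Ebp lie to the right of 0 and mostly on or above the diagonal, and Scd1 and Scd2 lie high with small changes in IL-2.

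IL-12 was also compared with IL-2 directly, without and with TCM. These comparisons share groups with those above, so their values stand side by side and add no independent evidence. Without TCM, 33 of 37 members were called, 31 higher with IL-12 and 2 lower, against 45.1% of all genes, 22.1% higher and 23% lower. The median log2 fold change was 0.65 over members and -0.01 over all genes. Groups were apart in 32 members with IL-12 higher and 2 with IL-12 lower, against 28.4% and 28.9% of genes, and 22 were called past 1.5-fold (20.4% of genes) and 6 past 2-fold (11%). With TCM, 34 were called, 33 higher and 1 lower, against 39% of all genes, 19.5% higher and 19.4% lower, with a median of 0.98. In that comparison 33 members were apart upward and 1 downward, against 25.1% and 24.9% of genes, 28 were called past 1.5-fold (18.3%) and 19 past 2-fold (10.5%).

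All 7 mevalonate enzymes and the 3 enzymes around squalene were higher with IL-12 in both settings. The median of the 7 was 0.81 without TCM and 1.19 with it, and that of the 3 was 0.76 and 1.01. Fdps had the largest cytokine effect of the 18 sterol enzymes without TCM, 1.32 on the log2 scale (SE 0.13), and Lss with TCM, 1.47 (SE 0.13). Ebp stood at 0.12 (edgeR adjusted p = 0.086) and 0.18 (adjusted p = 0.024), and the second call was lost in 8 of 24 alternatives. Srebf1 was higher with IL-12 in both settings, 1.42-fold and 1.68-fold, and Srebf2 1.21-fold and 1.17-fold.

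Several fatty acid genes differed by cytokine. Among them Elovl5 and Acacb were not called with TCM under either cytokine, while Fads2, Scd1 and Acss2 rose with TCM in IL-12. Elovl5 held 179, 175 and 161 CPM with IL-2, 186, 194 and 161 with IL-2 TCM, 349.6, 365 and 367 with IL-12 and 382, 357 and 364 with IL-12 TCM. The IL-12 libraries were all above all IL-2 libraries, 2.10-fold without TCM and 2.04-fold with it (edgeR adjusted p = 4.5e-08 and 5.6e-08). Fads2 held 42.5, 43.6 and 54.0 CPM with IL-2, 43.1, 47.2 and 46.2 with IL-2 TCM, 121, 110.2 and 111 with IL-12 and 153, 153 and 145 with IL-12 TCM. It was 2.44-fold higher with IL-12 without TCM and 3.30-fold higher with it (edgeR adjusted p = 5.5e-08 and 2.8e-09). Scd1 was 1.91-fold and 3.85-fold higher, the latter the largest rise among members in that comparison. Acacb went the other way, 3.23-fold lower without TCM (log2 -1.69, SE 0.23, edgeR adjusted p = 7.8e-05) and 3.06-fold lower with it (-1.61, SE 0.24, adjusted p = 0.00013). Acss2 was lower with IL-12 without TCM (log2 -0.54, edgeR adjusted p = 0.00021) and stood at -0.04 (adjusted p = 0.75) with TCM. B cell markers summed to 16.6 to 20.1 CPM in the IL-2 groups and 6.24 to 9.57 in the IL-12 groups, and dendritic cell markers to 1.63 to 4.17 and 9.14 to 12.8. Clec9a, a dendritic marker, was at 0 in the IL-2 group without TCM. Means were under 1 CPM for 3 of 4 dendritic markers in the IL-2 groups and 2 of 4 in the IL-12 groups. For B cells they were under 1 CPM for 3 of 5 markers in each group. Whether these sums reflect other cells, and the part of such cells in the cytokine results, was not tested.

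**Figure D5:**
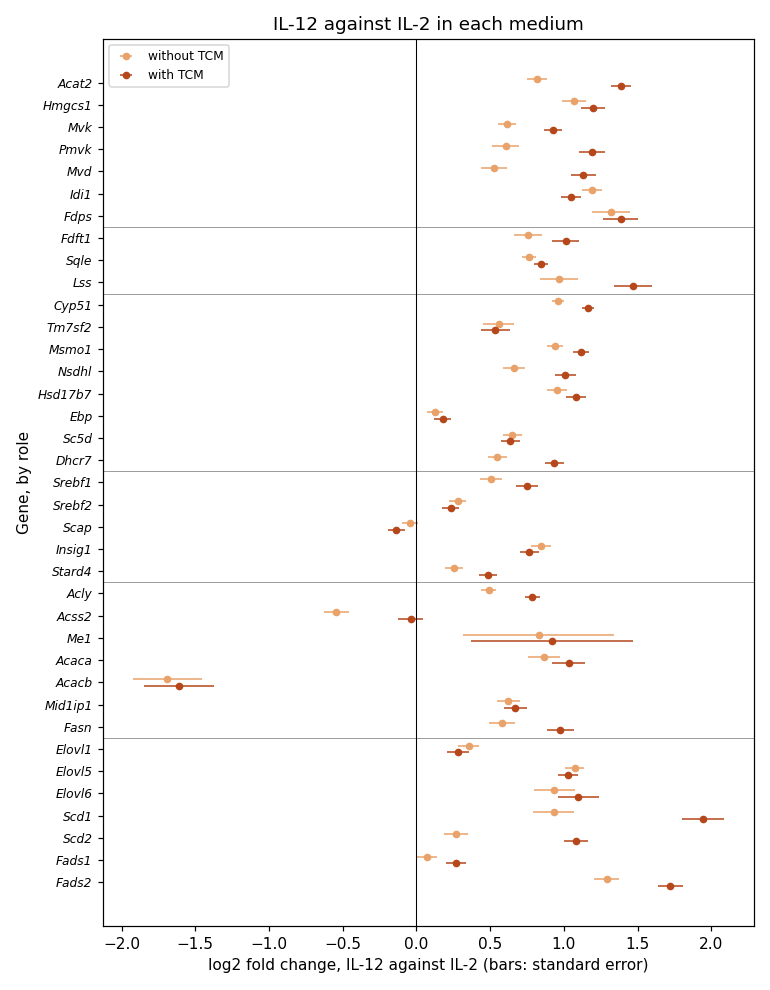
Log2 fold change of IL-12 against IL-2 for all 37 members without and with TCM, with bars of 1 standard error, in rows by role. Most points lie to the right of 0 in both settings, and Acacb lies at -1.69 and -1.61.

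Levels between genes were compared per kilobase of exon, as mean CPM per kb over the 12 libraries. Scd2 stood highest at 264, and it was first in each of the 4 groups. Hmgcs1 (99.1), Acly (81.4), Srebf2 (79.4), Elovl5 (76.6) and Cyp51 (71.2) came next over all libraries, and their order differed between groups. With IL-2, Hmgcs1 stood at 42.1 CPM per kb, below Srebf2 at 67.1, Acly at 64.1 and Elovl5 at 48.6. With IL-12 TCM, Hmgcs1 stood at 185, above Cyp51 at 118 and Acly at 109. Acacb (0.263), Me1 (0.334), Fdps (2.43), Acss2 (2.84) and Tm7sf2 (4.02) stood lowest. The 2 carboxylases thus differed widely, with Acaca at 8.20 CPM per kb. The spread within groups was wider with IL-2: the median coefficient of variation over members was 7.22% in IL-2 and 8.24% in IL-2 TCM, against 2.83% in IL-12 and 3.06% in IL-12 TCM.

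Other genes of lipid metabolism were read from lists of related genes. Of 13 further genes of SREBP control and cholesterol handling, 1 rose with TCM in IL-2, with 2 rises and 2 falls in IL-12. These 1 of 13 and 4 of 13 stand beside 14.5% and 29% of all genes called. Lipa, the lysosomal lipase that frees cholesterol from esters, rose in both, by 0.43 (edgeR adjusted p = 0.00098) and 0.26 (adjusted p = 0.0084). Npc2, a lysosomal cholesterol carrier, rose in IL-12 by 0.34 (adjusted p = 0.0037). Of 12 genes that use isoprenoids made from mevalonate, 0 were called in IL-2 and 3 fell in IL-12, against the same 14.5% and 29% of all genes, such as Pggt1b, a prenyltransferase subunit, by -0.22 on the log2 scale. Of 22 tested genes of fatty acid activation and glycerolipids, 6 rose and 2 fell in IL-2, and 9 rose and 3 fell in IL-12, that is 8 and 12 against those shares. Slc25a1, the mitochondrial citrate carrier that supplies Acly, went from 26.5 to 40.3 CPM in IL-2 (edgeR adjusted p = 0.0053) and from 33.7 to 59.6 CPM in IL-12 (adjusted p = 0.00029). Pcyt2, an enzyme of phosphatidylethanolamine synthesis, rose by 0.41 and 0.64 on the log2 scale, and Acsl3, an acyl-CoA synthetase, by 0.32 and 0.56. Lpin1, a phosphatidate phosphatase of triglyceride synthesis, stood at 0.08 (edgeR adjusted p = 0.52) in IL-2 and rose by 0.62 (adjusted p = 6.6e-05) in IL-12, and the test of the difference gave 0.54 (adjusted p = 0.017).

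Genes that encode the sterol-sensing LXR receptors, and genes linked to cholesterol efflux, were counted beside these as a single list. Of 8 such genes, TCM raised 1 and lowered 4 in IL-2, and raised 2 and lowered 2 in IL-12. Over all genes 6.73% were called as higher and 7.82% as lower in IL-2, and 14.8% and 14.2% in IL-12. Abca1, a cholesterol exporter, went from 28.0 to 6.64 CPM in IL-2 (log2 -2.08, edgeR adjusted p = 9.8e-08) and from 41.0 to 21.1 CPM in IL-12 (-0.95, adjusted p = 9.5e-06). Abcg1, its companion exporter, went from 115 to 34.4 CPM in IL-2 (log2 -1.75, edgeR adjusted p = 2.1e-07) and from 56.4 to 28.1 CPM in IL-12 (2.01-fold lower, adjusted p = 1.1e-05). Both exporters were thus lower with TCM under each cytokine, where 17 sterol enzymes were higher, and the fall of each was larger in IL-2. The tests of that difference gave 1.12 (edgeR adjusted p = 0.00070) for Abca1 and 0.74 (adjusted p = 0.010) for Abcg1. Smpdl3a, a phosphodiesterase, rose in both, by 0.50 and 0.68.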

How the data were processed

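The authors deposited a table of gene counts for 12 libraries, made after alignment with STAR 2.7.7a, per the submitters' processing notes, which also name edgeR without a version and a human build, GRCh38, although the identifiers are those of mouse. They also deposited a signal per gene for each library, the authors' counts divided by 1 constant per library (CPM on scaled library sizes). Per the labels, the kit was directional; whether the counts used strand is not stated.

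Counts were scaled by TMM and filtered with filterByExpr (minimum count 10, minimum total 15), which left 15897 of 55487 genes, all 37 members among them. A model with 1 mean per group was fitted with the quasi-likelihood functions of edgeR 4.0.16, where the common biological coefficient of variation was 0.104, with Benjamini-Hochberg adjustment over all genes tested in each of 5 contrasts and a threshold of 0.05. Printed levels, in CPM, use TMM-scaled library sizes, with SD over 3 libraries. Standard errors of log2 fold changes were derived from the F statistic. Scripts were tested on simulated data.

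The members and lists were chosen with earlier results of these data known. Values in every library are given for the largest and smallest TCM changes per role, for calls against a role's direction or in the difference of effects, and for a set of anchor genes. From each related list at most 3 genes with the smallest p are named; Slc25a1 was added after its values were seen. Alternatives were scaling by DESeq2 size factors or upper quartiles, other filters, DESeq2 1.42.0, limma 3.58.1 on log2(CPM + 1) or log2(CPM + 0.1), only the groups compared, a replicate block, each library left out, and replicate 3 of both IL-2 groups left out. The correlation of deviations between equal replicate numbers of IL-2 and IL-2 TCM was 0.26, 0.22 and 0.55, which passes the rule used for pairing (all above 0.1). Between other groups it was -0.04 to 0.07. Unequal numbers of replicates 1 and 2 gave 0.28 and 0.25, as high as equal ones, and replicate 3 against 1 or 2 gave -0.39 to -0.35, so the number sets apart replicate 3 alone. A chi-square test of counts between replicates gave 2.4 to 5.51 per degree of freedom, but 28.5 to 45.4 where replicate 3 of IL-2 or IL-2 TCM was in the pair. Symbols matched 55141 identifiers and 346 had none. Exon lengths came from GENCODE M21 and promoters from RefSeq.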

Additional observations from a re-analysis of the deposited data

Results flagged for a closer look

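The effect of TCM differed between the cytokines in a direct test for 5 members, each with a larger rise in IL-12. For Acat2 the log2 fold change with TCM was 0.47 in IL-2 and 1.04 in IL-12, a difference of 0.57 (edgeR adjusted p = 0.0092). For Pmvk it was 0.45 and 1.03, a difference of 0.59 (adjusted p = 0.036), and for Mvd 0.75 and 1.36, a difference of 0.61 (adjusted p = 0.027). Scd1 stood at 0.28 and 1.29, a difference of 1.01 (adjusted p = 0.021), and Scd2 at 0.09 and 0.90, a difference of 0.82 (adjusted p = 0.0047). In all 5 genes every IL-12 TCM library was above every IL-12 library.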

How the results depend on the processing

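Under the alternatives, the number of members called was 16 to 26 for TCM in IL-2 (22 as reported), 26 to 30 for TCM in IL-12 (29), 32 to 35 for IL-12 against IL-2 in plain medium (33) and 32 to 36 under TCM (34). Leaving out 1 library gave 17 to 23, 26 to 29, 32 to 34 and 32 to 35. The share of all genes called under the alternatives was 3.81 to 27.9%, 11.2 to 48.9%, 19.4 to 56.0% and 18.0 to 49.0% in these contrasts. As reported it was 14.5%, 29%, 45.1% and 39%. No called member reversed. The test of the difference between TCM effects moved most. From 5 members it went to 10 without a filter, 11 in DESeq2, 3 in limma on log2(CPM + 1) without a filter and 18 when replicate 3 was dropped from IL-2 and IL-2 TCM. The shares of all genes called there were 2.41%, 4.41%, 0.551% and 13.2%, against 1.58% as reported. Leaving out 1 library gave 2 to 13: 2 without any one IL-12 or IL-12 TCM library or without IL-2 TCM replicate 2, 3 without IL-2 TCM replicate 1, and 13 without IL-2 TCM replicate 3. Of all genes, 0.642 to 0.876% were called where 2 members were, 0.916% without IL-2 TCM replicate 1 and 7.19% without IL-2 TCM replicate 3. The cause was not tested.

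With a replicate block for the IL-2 libraries only, 26, 30, 35, 36 and 17 members were called in the 5 contrasts. That fit called 27.9, 42.0, 56.0, 49.0 and 10.5% of all genes. With a block over all libraries, 22, 29, 34, 34 and 7 members were called, beside 17.1, 31.1, 46.9, 41.2 and 2.08% of all genes. Equal replicate numbers were not linked outside the IL-2 groups. Over all genes, the count called for TCM in IL-2 went from 2313 to 587 with only the groups compared, 4442 with the block for IL-2 libraries, 3936 with replicate 3 of IL-2 and IL-2 TCM dropped, and 1292 and 1432 without replicate 1 or 2 of IL-2. For TCM in IL-12 it went from 4617 to 7133 with only the groups compared, 7332 with those replicates dropped, and 2931 and 3067 without IL-12 replicate 1 or IL-12 TCM replicate 3. For the difference it went from 251 to 105 to 2105. Only the groups compared was not run for the difference. Me1 and Acacb, under 5 CPM on average in each group, had the widest errors, and counting error limits them most.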
